A study of Homo sapiens with 54 samples.

Results

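HCT-116 cells that had been made resistant to 5-fluorouracil (5-FU) were compared with the sensitive HCT-116 cells they came from, both given uracil in place of the drug. HCT-116 is a human colorectal carcinoma line with mismatch repair deficiency. The members were chosen by their labels only: 6 of the 54 libraries of the series, 3 of resistant HCT-116 in 10 µM uracil and 3 of sensitive HCT-116 in 10 µM uracil, each after 24 h. The resistant cells had been grown in rising amounts of 5-FU for 8 months and were then kept in 50 µM 5-FU, so they are 1 selected population and not a set of separately selected lines. By their labels, the other 48 libraries were DLD-1 and HT-29 cells and the HCT-116 cells treated with 10 µM 5-FU alone or with irradiation. Poly(A) RNA was sequenced, and the unit printed for a level is TPM (transcript abundance scaled for transcript length and for the library total).

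5-FU is a uracil analogue that cells turn into nucleotides. Its products block thymidylate synthase, the enzyme that makes thymidylate for DNA, and are built into RNA and DNA. A cell can become resistant by altering drug uptake, activation or breakdown, the drug target, DNA repair or the response to damage, and the comparison in uracil asks which transcripts differ when no drug is present. Krüppel-associated box zinc finger proteins (KZFP), which are described at length below, are DNA-binding repressors that recruit the corepressor TRIM28, and their genes lie mostly in clusters on chromosome 19.

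The libraries held between 49189583 and 58622601 estimated counts, and log2 TPM values of replicates of a group correlated across genes with r of 0.991 to 0.992. Of 46 genes that marked sensitive HCT-116 against the sensitive cells of the other lines, 44 were at 1 TPM or more in every resistant library, and the exceptions were TNFRSF6B and GPAT2. None of the 17 DLD-1 markers or 5 HT-29 markers reached 1 TPM in every resistant library. Mitochondrial genes took 5.04 to 5.45% of counts in the resistant libraries and 2.99 to 4.00% in the sensitive ones. Leukocyte markers summed to 14.9 to 17.6 TPM in resistant and 8.60 to 9.83 TPM in sensitive libraries, mostly CD68, with CD3D and CD3E at 0 in every library. ITGAM and PTPRC, the leukocyte markers that were called higher, averaged 1.23 and 0.317 TPM in resistant cells. The fibroblast markers summed to 10.3 to 13.7 TPM in resistant and 20.5 to 25 TPM in sensitive libraries, with both tested markers (COL1A1 and PDGFRB) lower and POSTN at 0 in every library. The PDGFRB call was lost without resistant replicate 3, when 1 of 3 tested fibroblast markers was lower. The endothelial markers summed to 3.08 to 4.29 and 2.59 to 2.76 TPM, with KDR called lower of 5 tested, a call that was lost without resistant replicate 3. The part of such cells in the results was not tested, and in bulk RNA fewer cells of a type and less RNA per cell cannot be told apart. Colorectal epithelial markers summed to 2790 to 3038 TPM in resistant and 2872 to 3121 TPM in sensitive libraries, with 1 of 9 tested (CDH1) called.

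Resistant replicate 3 stood apart from its group. Among the 121 protein-coding genes that were at least 16-fold lower in resistant cells, it held the highest of the 3 resistant values for 88 genes, and the median level of these genes was 0.0987 TPM in it against 0.0235 and 0.0220 TPM in replicates 1 and 2. Among the 458 protein-coding genes called higher, it held the lowest resistant value for 212. Values without this library are therefore given beside the results it moved.

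Calls required a 2-fold difference and, in the edgeR quasi-likelihood test, a p of 0.01 or less after Benjamini-Hochberg adjustment. Of 22975 genes tested, resistant cells had 1562 (6.80%) lower and 957 (4.17%) higher, and the log2 fold changes had a median of 0.00 over all of them. Without resistant replicate 3 the counts were 1628 lower and 1031 higher. Among the 14914 genes annotated as protein-coding, 1273 (8.54%) were lower and 458 (3.07%) higher. The excess of decreases grew with the size of the difference: 498 protein-coding genes fell and 125 rose by at least 4-fold, and 121 fell and 20 rose by at least 16-fold. Of the 20 genes at 5 TPM or more in sensitive cells that fell at least 16-fold, 11 fell at least 32-fold. Resistant and sensitive libraries did not overlap in TPM for 12258 genes (53.4%). The root mean square difference in log2(TPM + 1) was 0.612 on average between resistant and sensitive libraries, 0.412 between replicates within these groups, and 0.578 between sensitive cells in 5-FU and in uracil.

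The genes with the largest decreases were close to silent in resistant cells. TNFRSF6B, which encodes the decoy receptor that binds FAS ligand, was at 26.9, 21.3 and 22.7 TPM in the sensitive libraries and at 0, 0 and 0.195 TPM in the resistant libraries. The log2 fold change was -8.53 ± 0.38 (SE, edgeR adjusted p = 1.99e-13). The gene lies at chr20:63696652-63698684 (GRCh38) beside RTEL1, a helicase gene, and shares sequence with the read-through gene RTEL1-TNFRSF6B. RTEL1 averaged 40.1 TPM in resistant and 24.4 TPM in sensitive cells and the read-through averaged 9.40 and 5.93 TPM, so neither was lower in resistant cells and neither reached the 2-fold threshold. How the counting split reads among these transcripts was not tested.

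GPAT2, a mitochondrial glycerol-phosphate acyltransferase, had 28.6, 27.7 and 27.1 TPM in sensitive cells and 0.112, 0.164 and 1.16 TPM in resistant cells (log2 fold change -5.74 ± 0.26 SE, edgeR adjusted p = 5.20e-14). PXDN, a peroxidase that cross-links collagen IV in basement membrane, had 14.9, 15.1 and 13.4 TPM against 0.227, 0.867 and 0.454 TPM (-6.24 ± 0.29). SLC22A17, CCN3 (a secreted matricellular protein) and SUSD3 went from means of 5.90, 5.21 and 6.69 TPM to means of 0.109, 0.114 and 0.161 TPM. Without resistant replicate 3, the log2 fold changes of TNFRSF6B, GPAT2, PXDN, SLC22A17, CCN3 and SUSD3 were -13.2, -7.23, -8.36, -7.93, -6.23 and -11.3. The decreases were thus smaller with that library than without it, and their direction was the same.

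HLA-DQB1, a beta chain of the major histocompatibility complex class II molecules that present peptides to T cells, had 6.19, 4.72 and 4.63 TPM in sensitive cells. It was at 0, 0 and 0.0852 TPM in resistant cells, a log2 fold change of -6.81 ± 0.38 (edgeR adjusted p = 6.46e-12), or -10.7 without resistant replicate 3. Other class II genes were looked up after this value was seen. HLA-DRB1 fell from a mean of 2.67 to 0.0777 TPM, HLA-DPA1 from 1.07 to 0.0639 TPM, HLA-DPB1 from 1.34 to 0.241 TPM and HLA-DMA from 12.6 to 5.92 TPM, and each was called. HLA-DQA1, the alpha partner of HLA-DQB1, was at 0.120 against 0.169 TPM with overlapping groups and was not called (edgeR adjusted p = 0.833). CIITA, the coactivator that switches class II genes on, was at 0.643 ± 0.513 TPM in resistant and 0.378 ± 0.139 TPM in sensitive cells (SD, n = 3) and was not called (edgeR adjusted p = 0.489). CD74, the class II invariant chain, was not called either (0.805 against 0.616 TPM). The HLA genes are close relatives, and the assignment of reads among them is uncertain.

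The largest increases were led by ZBED2, a zinc finger transcription factor. It was at 33.1, 32.7 and 40.2 TPM in resistant libraries and at 0.670, 0.857 and 0.585 TPM in sensitive libraries, a log2 fold change of 5.61 ± 0.13 (edgeR adjusted p = 3.63e-18). F3, the tissue factor that starts blood clotting, reached the highest level of this group. It had 244, 250 and 236 TPM against 20.1, 19.6 and 18.9 TPM (11.3-fold, edgeR adjusted p = 1.92e-23). ALDH1L1, a cytosolic enzyme that oxidizes 10-formyltetrahydrofolate in the folate pool, had 10.4, 9.39 and 9.70 TPM against 0.506, 0.260 and 0.648 TPM (20.4-fold, edgeR adjusted p = 1.95e-17). COL17A1, the transmembrane collagen of hemidesmosomes, PDE4D, which degrades cyclic AMP, VSNL1, a neuronal calcium sensor, TLL1, a metalloprotease, and CPA4, a carboxypeptidase, were 10.7-, 9.24-, 9.10-, 8.19- and 7.72-fold higher. In every one of these genes the lowest resistant library was above the highest sensitive library.

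**Figure D1:**
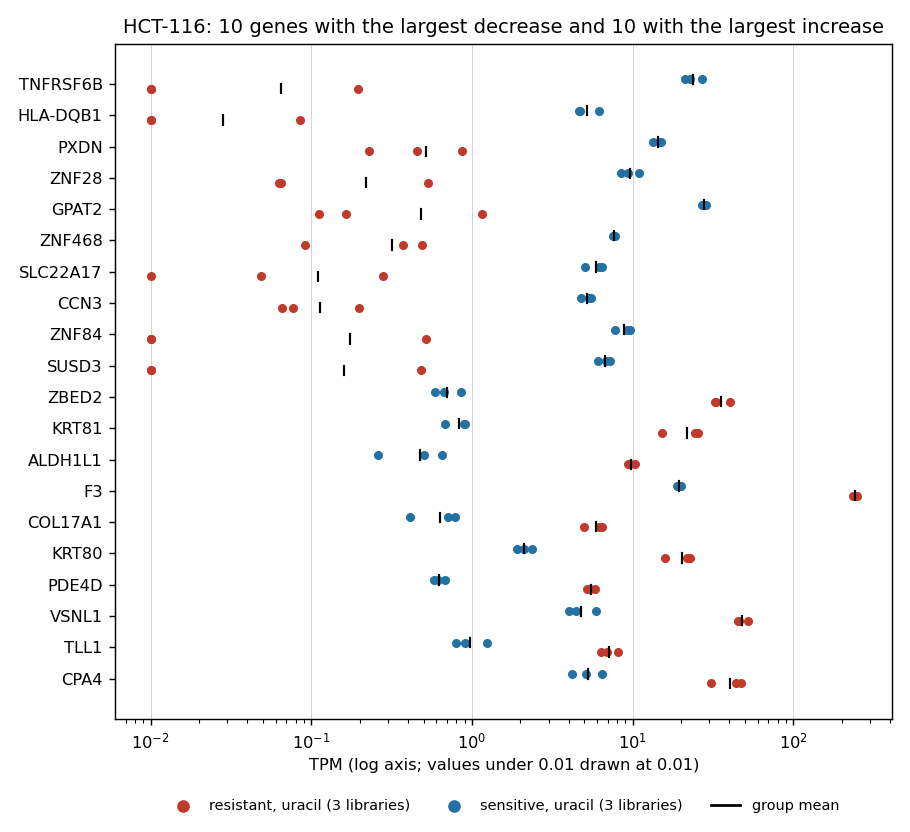
TPM (log axis) of the 10 protein-coding genes with the largest decrease and the 10 with the largest increase in resistant HCT-116, with a point for each of the 3 resistant and 3 sensitive libraries in uracil and a bar for each group mean, and values of 0 drawn at the left end. The groups do not overlap for any gene, and resistant replicate 3 is the rightmost resistant point for most decreased genes, as for SUSD3 at 0.481 TPM against 0 in both other libraries.

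The genes that handle 5-FU itself did not pass the test. Of 46 genes of drug activation, degradation, thymidylate and folate metabolism and removal of uracil from DNA, 44 were tested and 0 were called by edgeR, with log2 fold changes from -0.58 (GGH, which removes glutamates from folates) to 1.24 (UPB1, which acts last in pyrimidine breakdown). By the adjusted p alone 21 of the 44 differed, against 41.1% of all genes tested. UPB1 was at 0.245 against 0.118 TPM. Of the 2 tested degradation genes, 1 was called higher without resistant replicate 3. The median log2 fold changes of the activation, folate and uracil removal lists were -0.06, 0.05 and 0.07.

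TYMS, the target thymidylate synthase, was at 369, 360 and 361 TPM in resistant and 298, 287 and 296 TPM in sensitive libraries. The groups did not overlap, and the fold was 1.18 (edgeR adjusted p = 5.97e-05), under the 2-fold threshold. UMPS, which attaches ribose phosphate to 5-FU, had 58.8, 47.7 and 53.3 TPM against 45.6, 47.9 and 54.2 TPM, and the groups overlapped. DPYD, the enzyme that breaks 5-FU down, was at 1.09 ± 0.0382 TPM in resistant and 1.10 ± 0.105 TPM in sensitive cells (SD, n = 3). TK1, which salvages thymidine, was lower at 273 against 323 TPM (edgeR adjusted p = 0.000237).

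Of 14 tested transport genes, 2 (14.3%) were lower and 0 higher, against 6.80% and 4.17% of all genes. ABCB1, the multidrug efflux pump, fell from 1.85, 1.31 and 1.89 TPM to 0.0643, 0.00689 and 0.130 TPM (log2 fold change -5.32 ± 0.43, edgeR adjusted p = 7.89e-10, and -7.45 without resistant replicate 3). ABCC11, an efflux pump of nucleotide analogues, fell from 0.308 to 0.149 TPM. Both were at low levels in HCT-116 from the start, and ABCB1 averaged 82.8 TPM in sensitive DLD-1. Of 8 mismatch repair genes 1, MLH3, was called (2.09-fold lower), and the call was lost with scaling by library size alone.

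PLK2, a stress-induced polo-like kinase, had 68.3 TPM in each resistant library and 20.1 to 20.9 TPM in sensitive ones (3.17-fold, edgeR adjusted p = 5.70e-18). GDF15, a stress-induced cytokine, had 195, 204 and 361 TPM against 529, 492 and 496 TPM (2.05-fold lower), and the call was lost without resistant replicate 1 or 2, without sensitive replicate 1 and with scaling by library size alone. CDKN1A, a cell cycle inhibitor, was 1.40-fold lower (162 against 220 TPM) and MDM2, a ubiquitin ligase, was 1.25-fold higher (101 against 80.3 TPM). None of 21 G1/S and replication genes was called by edgeR, against 6.80% lower and 4.17% higher of all genes tested. Of 24 G2/M genes 1 was called, CDC25C, the phosphatase that opens mitosis, which had 1.69, 2.19 and 2.88 TPM in resistant and 17.8, 17.4 and 16.5 TPM in sensitive libraries (8.25-fold lower, edgeR adjusted p = 5.39e-15). The other 23 lay within 0.465 of 0 on the log2 scale.

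**Figure D2:**
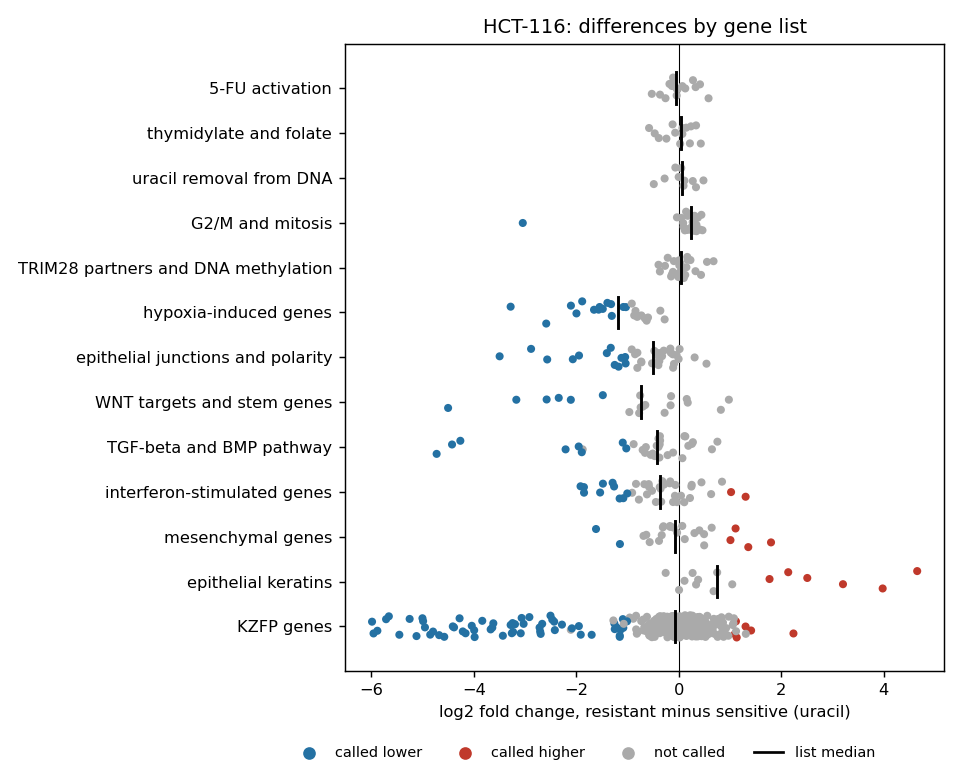
log2 fold change (resistant minus sensitive HCT-116 in uracil) of each tested gene in 13 lists, with called genes in colour, genes not called in grey and a bar for the list median. The drug-handling lists lie around 0, the hypoxia list lies wholly below 0 with a median of -1.19, and the KZFP genes have a median of -0.08 with a long tail to -5.99.

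Hypoxia-induced genes were the list with the largest share of decreases among lists of 20 or more tested genes. Of 24 tested, 14 (58.3%) were lower and 0 higher, the median log2 fold change was -1.19, and all 24 values were negative, against 6.80% lower and a median of 0.00 over all genes tested. Without resistant replicate 3 the counts were again 14 and 0. NDRG1, a differentiation gene induced by low oxygen, had 22.2, 22.1 and 25.5 TPM in resistant and 247, 205 and 222 TPM in sensitive libraries (9.72-fold lower, edgeR adjusted p = 2.70e-15). EGLN3, a prolyl hydroxylase that marks hypoxia-inducible factor for destruction, was lower at 1.72 against 9.29 TPM. BNIP3L and BNIP3, mitophagy receptors, were 4.30- and 3.99-fold lower, with 17.6 against 74.1 TPM and 19.9 against 80.2 TPM. PDK1, a pyruvate dehydrogenase kinase, was 3.15-fold lower, and P4HA1, HK2, PFKFB4, CA9, CA12, ADM, ANKRD37, ANGPTL4 and DDIT4 made up the rest. The groups did not overlap in TPM for 23 of the 24 genes, against 53.4% of all genes, and CA9 was the exception. HIF1A, the alpha subunit of hypoxia-inducible factor 1, was looked up after these values and stood at 72.9 ± 5.55 TPM against 132.9 ± 1.46 TPM (SD, n = 3) (1.90-fold, not called). Culture density and oxygen were not measured.

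Of 38 genes of epithelial junctions and polarity, 12 (31.6%) were lower and 0 higher, against 6.80% and 4.17% of all genes, with a median log2 fold change of -0.50. CDH1, or E-cadherin, the main adhesion molecule of epithelia, had 7.64, 6.39 and 7.03 TPM in resistant and 26.9, 26.2 and 26.2 TPM in sensitive libraries (3.85-fold lower, edgeR adjusted p = 7.72e-17). GRHL2, a transcription factor that maintains epithelial identity, was 5.93-fold lower (1.09 against 6.46 TPM), and CDS1, which makes CDP-diacylglycerol, was 7.37-fold lower (1.96 against 14.2 TPM). JUP, the junction protein plakoglobin, CGN, a tight junction protein, ST14, a membrane protease, RAB25, CDH3, CLDN3, CLDN2, CLDN1 and the splicing factor ESRP1 also fell. EPCAM was 1.30-fold lower at 244 against 304 TPM and did not reach the threshold.

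Of 24 mesenchymal genes tested, 2 (8.33%) were lower and 4 (16.7%) higher, with a median log2 fold change of -0.07. The lower share was near that of all genes (6.80%), the higher share of all genes was 4.17%, and without resistant replicate 3 the counts were 2 and 3. S100A4, a calcium-binding protein of motile cells, rose 3.49-fold to 992, 1038 and 1201 TPM from 299, 301 and 302 TPM. AXL, a receptor tyrosine kinase, rose 2.57-fold (64.0 against 24.1 TPM). ZEB1, a repressor of CDH1, rose 2.02-fold (6.07 against 2.85 TPM), and CCN2, a matricellular protein, rose from 2.76 to 6.16 TPM. SPARC, a matrix glycoprotein, fell 3.06-fold from 2240 to 771 TPM, and CALD1, an actin-binding protein, fell from 58.9 to 26.4 TPM. VIM, the intermediate filament of mesenchymal cells, had 7.86, 9.38 and 12.4 TPM against 5.61, 5.62 and 5.97 TPM and was not called (1.56-fold, edgeR adjusted p = 0.000994).

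Keratins went up where they changed. Of 15 tested keratin genes, 6 (40.0%) were higher and 0 lower, with a median log2 fold change of 0.75, against 4.17% higher over all genes. KRT81, a hair-type keratin, had 25.6, 24.3 and 15.3 TPM in resistant and 0.903, 0.898 and 0.678 TPM in sensitive libraries (25.2-fold, edgeR adjusted p = 5.03e-14). KRT80 had 22.7, 21.9 and 15.9 TPM against 2.09, 2.35 and 1.90 TPM (9.24-fold), and KRT7, a keratin of ducts, had 29.6, 27.0 and 20.2 TPM against 3.89, 5.00 and 4.14 TPM (5.70-fold). KRT86, a close copy of KRT81, rose from 0.215 to 3.66 TPM, so reads may be shared between them. KRT13 and KRT5 were the others called, and KRT5 was low with overlapping groups (0.228 against 0.155 TPM). KRT8 and KRT18, the main keratins of simple epithelia, were at 1086 and 582 TPM in resistant against 1044 and 672 TPM in sensitive cells and were not called.

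Within the type II keratin cluster of chromosome 12 (chr12:52168996-52952906, GRCh38), 8 protein-coding genes were tested. KRT80, KRT7, KRT86, KRT81, KRT83 and KRT5 were adjacent in the tested order and all higher, while KRT8 and KRT18 at the other end were not called. In the type I cluster of chromosome 17 (chr17:40654665-41624842) 14 of 29 tested genes were higher and 0 lower, among them 6 keratin-associated protein genes and the hair keratins KRT31, KRT32, KRT34, KRT37 and KRT38. KRTAP2-3 rose from 5.90 to 18.1 TPM and KRT32 from 0.915 to 2.38 TPM. Other genes called there were far lower, with KRT37, KRT38, KRTAP4-9 and KRTAP1-1 at 0.209, 0.260, 0.198 and 0.405 TPM in resistant cells. KRT34 had 3 counts or fewer in every sensitive library and 1.08 TPM in resistant cells, at least 23.8-fold higher, and KRT31 rose from 0.0723 to 0.425 TPM. KRT13, a keratin of stratified mucosa, rose from 1.29 to 4.80 TPM. On chromosome 1 the neighbours S100A5, S100A4, S100A3 and S100A2 (chr1:153537147-153567890) were all higher, by 1.30 to 2.08 on the log2 scale. These runs were picked out after the values were seen.

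**Figure D3:**
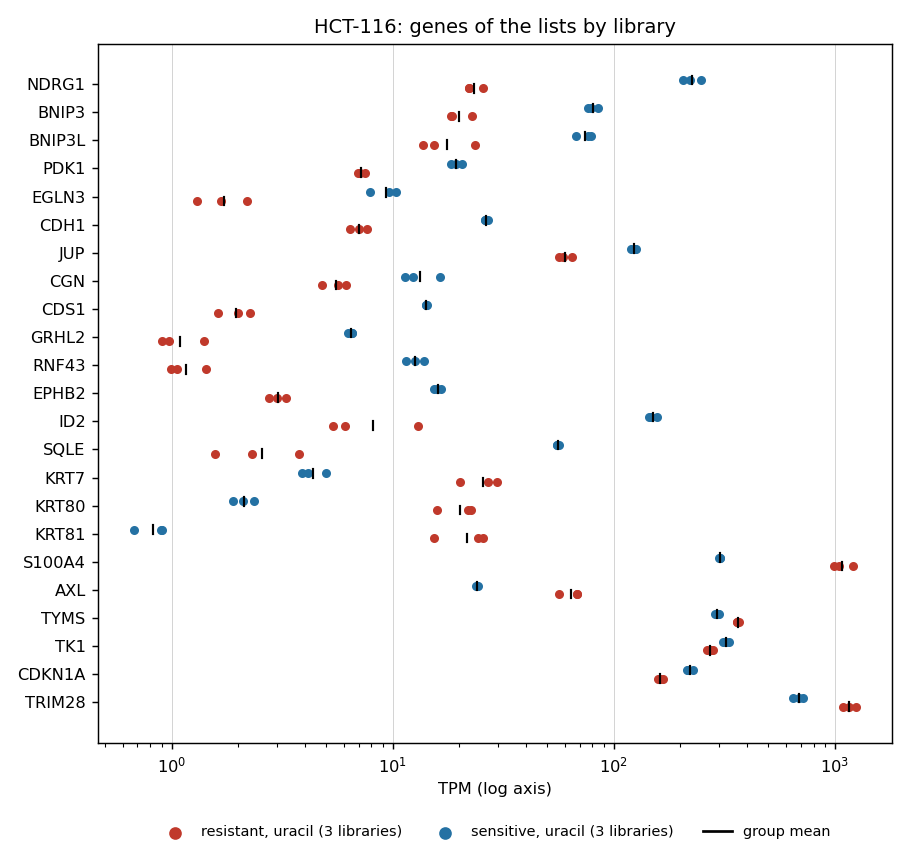
TPM (log axis) of 23 genes from the lists in each of the 3 resistant and 3 sensitive HCT-116 libraries in uracil, with a bar for each group mean. Hypoxia, junction and stem genes and SQLE lie to the left in resistant cells and the keratins, S100A4 and AXL to the right, while TYMS, TK1, CDKN1A and TRIM28 separate by less than 2-fold.

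Of 19 WNT target and stem genes, 6 (31.6%) were lower and 0 higher, against 6.80% and 4.17% of all genes. The median log2 fold change was -0.74, and the counts were 7 and 1 of 20 without resistant replicate 3. RNF43, the ubiquitin ligase that removes WNT receptors from the cell surface, had 1.06, 0.997 and 1.43 TPM in resistant and 12.7, 11.4 and 13.9 TPM in sensitive libraries (log2 fold change -3.17 ± 0.08, edgeR adjusted p = 6.26e-18). EPHB2, a crypt-position receptor, had 2.77, 2.99 and 3.28 TPM against 16.6, 15.9 and 15.4 TPM (5.07-fold lower), and EPHB3 was lower at 0.921 against 4.77 TPM. TNFRSF19, a receptor gene of stem cells, fell from 1.15 to 0.104 TPM, LRIG1, a negative regulator of EGFR, from 1.83 to 0.378 TPM and NKD1, a WNT feedback inhibitor, from 4.35 to 1.58 TPM. The log2 value of TNFRSF19 was -4.50, and -6.15 without resistant replicate 3.

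In the TGF-beta and BMP list 8 of 33 genes (24.2%) were lower and 0 higher, against 6.80% and 4.17% of all genes, with a median of -0.43. ID2, an inhibitor of differentiation factors and a BMP target, had 5.35, 6.11 and 13 TPM against 157, 148 and 145 TPM (19.2-fold lower, edgeR adjusted p = 1.18e-13). SMAD9, a BMP signal transducer, was 3.87-fold lower, and ID3, BAMBI, BMP7, NOG, ID4 and INHBB were the other genes called. Among 26 genes of EGFR ligands and MAPK feedback, 5 were lower and 2 higher, or 6 and 1 without resistant replicate 3. EGR1, an immediate early factor, had 5.51, 6.10 and 14.6 TPM against 73.0, 65.7 and 68.8 TPM (8.19-fold lower), and the feedback genes SPRY1, SPRY4, DUSP6 and ETV4 were lower. FOSL1, an AP-1 subunit, was 2.28-fold higher (188 against 81.0 TPM). EGF was 2.16-fold higher with overlapping groups, and its call was lost without resistant replicate 3 or sensitive replicate 1.

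Lineage factors changed in both directions. GATA6, a factor of gut endoderm, fell 2.49-fold (2.56 against 6.07 TPM). HES1, a Notch target of progenitors, fell from 33.0 to 16.3 TPM. MUC13, MUC2 and ANPEP, products of mature gut cells, were called higher at means of 0.379 TPM or less. Of 30 HOX genes, 2 were lower and 4 (13.3%) higher, against 4.17% higher of all genes. HOXB8 (33.1 against 7.04 TPM), HOXB4 (14.4 against 3.74 TPM), HOXB3 and HOXB6 rose, while HOXD8 (1.65 against 8.39 TPM) and HOXD3 fell. The lower share (6.67%) was near that of all genes (6.80%), and without resistant replicate 3 the counts were 4 lower and 5 higher of 32.

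Interferon-stimulated genes were lower for 10 of 40 (25%) and higher for 2 (5.0%), against 6.80% and 4.17% of all genes, with a median of -0.36. The counts were 10 and 1 without resistant replicate 3. IFI6 was 3.77-fold lower, with 5.20, 5.96 and 11.3 TPM in resistant and 29.4, 26.4 and 25.6 TPM in sensitive libraries, and UBE2L6, an ISG15-conjugating enzyme, was 3.60-fold lower. MX2 was 2.03-fold higher and lost its call without sensitive replicate 1 or 3. In MHC class I presentation 3 of 19 genes were lower, the immunoproteasome subunits PSMB9 and PSMB8 and the class I gene HLA-F, and 0 higher. Of 19 NF-kB genes 2 were higher, the feedback inhibitor NFKBIA (58.4 against 25.7 TPM) and the cytokine CSF2, which was at 0.488 TPM. Of these, 1 was lower and 3 higher without resistant replicate 3.

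In cholesterol and fatty acid synthesis 1 gene was lower and 1 higher of 31 tested (3.23% each), against 6.80% and 4.17% of all genes. The median log2 fold change was 0.34. SQLE, squalene epoxidase, which carries out the oxidation step after squalene, had 1.57, 2.32 and 3.76 TPM in resistant and 55.0, 55.3 and 56.5 TPM in sensitive libraries, a 28.4-fold decrease (edgeR adjusted p = 3.70e-16). HMGCS1, an early enzyme of the same pathway, had 156, 152 and 75.0 TPM against 45.0, 46.7 and 45.4 TPM (2.76-fold higher). SQLE was low in every resistant library, and 6 of the 31 genes had a negative log2 fold change.

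The lists of this paragraph are read against 6.80% lower and 4.17% higher of all genes tested. Of 24 NRF2 targets 1 (4.17%) was lower and 2 (8.33%) were higher. NQO1, a quinone reductase, was 2.96-fold lower (242 against 674 TPM). SLC7A11, the cystine transporter, and AKR1B10, an aldo-keto reductase, were 2.16- and 2.10-fold higher. Of 25 ATF4 genes, DDIT4, an inhibitor of mTORC1, and PHGDH, which starts serine synthesis, were lower, and NUPR1, ATF5 and SLC7A11 were higher. Of 17 BCL2 family genes 1 (5.88%) was lower, the BH3-only gene BMF (5.18-fold). Of 16 TRAIL and death receptor genes CASP10 (7.18-fold) and TNFRSF6B (12.5%) were lower, with 1 gene higher without resistant replicate 3. ALDH1L1 was the 1 gene called (6.25%, higher) of 16 aldehyde dehydrogenases, of which 2 were higher without resistant replicate 3. The lower shares of the NRF2, ATF4 and BCL2 lists and the higher share of the aldehyde dehydrogenases were near those of all genes. Of 16 prostaglandin genes HPGD, PTGER2 and PTGS1 (18.8%) were lower and PTGDS (6.25%) was higher. The PTGDS call was lost in 5 of the 6 fits that left a library out. In the fit without resistant replicate 3, 5 of the 16 were lower and 0 higher. None of 7 tested cancer-testis genes was called by edgeR.

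KZFP genes took a growing share of the decreases as the size of the decrease grew. Of 304 tested, 59 (19.4%) were lower and 6 (1.97%) higher, against 6.80% lower and 4.17% higher over all genes and 8.54% and 3.07% over protein-coding genes. Among 273 C2H2 zinc finger genes without a KRAB domain 27 (9.89%) were lower and 7 higher. The median KZFP log2 fold change was -0.08, and 239 of the 304 were not called. Of the 304, 75 averaged under 1 TPM in both groups, where a call is harder to reach. KZFP genes were 2.04% of the protein-coding genes tested and 4.63% of those called lower, and their share was 9.44% at 4-fold or more, 14.3% at 8-fold or more and 17.4% at 16-fold or more. The KZFP counts were again 59 and 6 without resistant replicate 3. TRIM28, the corepressor they share, had 1156, 1249 and 1082 TPM in resistant and 688, 647 and 720 TPM in sensitive libraries and was not called (log2 fold change 0.68), and none of 27 genes of TRIM28 partners and DNA methylation was called by edgeR.

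ZNF607 was at 3.11, 3.00 and 2.08 TPM in sensitive and 0, 0.00812 and 0.0987 TPM in resistant libraries (log2 fold change -5.99 ± 0.38, edgeR adjusted p = 5.48e-11, and -8.87 without resistant replicate 3). ZNF28 had 8.48, 10.9 and 9.34 TPM against 0.0644, 0.0626 and 0.533 TPM (-5.96 ± 0.22). ZNF468 had 7.64, 7.74 and 7.59 TPM against 0.0915, 0.487 and 0.370 TPM (-5.66 ± 0.16). ZNF84 had 7.77, 9.59 and 9.28 TPM against 0.00426, 0 and 0.518 TPM (-5.45 ± 0.37). Without resistant replicate 3 the values of ZNF28 and ZNF84 were -6.76 and -10.3. ZNF649, which represses serum response and AP-1 reporters, had 1.98, 2.51 and 1.97 TPM against 0.0658, 0.0630 and 0.0859 TPM (-5.00 ± 0.30). ZNF416 was the KZFP gene with the largest increase, with 5.01, 5.32 and 5.12 TPM in resistant and 0.899, 1.03 and 1.25 TPM in sensitive libraries (4.73-fold), and ZNF460 was 2.19-fold higher. Of the 15 KZFP genes that the study took to RT-qPCR, 12 were lower and 0 higher, with a median of -4.04, but these were chosen on the same samples and are not independent evidence. Near-identical members of the family may share reads.

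The decreases were grouped along the chromosomes. On chromosome 19, 47 of 180 tested KZFP genes were lower and 6 higher, and elsewhere 12 of 124 were lower and 0 higher. Over all protein-coding genes tested 8.54% were lower and 3.07% higher, so the lower share of KZFP genes outside chromosome 19 was near the general one. Tested KZFP genes less than 500 kb apart were joined into clusters. The cluster at chr19:51571283-53580269 (GRCh38) held 34 tested genes, of which 15 were lower and 0 higher. Inside it ZNF83, ZNF611, ZNF600, ZNF28, ZNF468, ZNF320, ZNF888, ZNF816 and ZNF160 formed a run of 9 adjacent tested protein-coding genes over 509 kb that were all lower, by 2.08 to 5.96 on the log2 scale. Directly beyond ZNF160, ZNF347, ZNF665 and ZNF677 were not called, then ZNF845 (-5.12) and ZNF525 (-2.47) were lower, and ZNF765 and ZNF761 were not called (0.19 and 0.17). The cluster at chr19:36182276-37817300 had 10 of 23 genes lower, including the adjacent ZNF585A, ZNF585B, ZNF383 and ZNF875. At the end of chromosome 12 (chr12:132918306-133214832) ZNF26, ZNF84, ZNF140 and ZNF268 were lower of 6 tested, and at chr19:22752183-24129968 ZNF724, ZNF91, ZNF675 and ZNF254 were lower of 6 tested.

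The cluster at the end of chromosome 19 (chr19:57191500-58481230) was also of 34 tested genes, but 1 was lower (ZNF586) and 4 were higher (ZNF460, ZNF419, ZNF416 and ZNF132), with a median log2 fold change of 0.53 against -0.49 in the cluster with 15 decreases. The median over the tested protein-coding genes of a chromosome, from 1 to 22 and X, lay between -0.14 (chromosome 15) and -0.02 (chromosome 17). Outside the KZFP clusters, runs of adjacent decreases included the natural killer receptor genes KLRC4-KLRK1, KLRK1, KLRC4, KLRC3 and KLRC2 on chromosome 12, of which KLRC2 fell from 5.81 to 0.814 TPM. KLRC4-KLRK1 is a read-through gene that spans KLRK1 and KLRC4, so reads may be shared among them. KLRK1, KLRC4 and KLRC3 averaged only 0.796, 0.774 and 1.39 TPM in sensitive cells. A second run of decreases outside the KZFP clusters was JAZF1, CREB5, CPVL, CHN2, PRR15 and WIPF3 on chromosome 7. A run of 6 higher genes on chromosome 5 (chr5:115613210-116060118) held ATG12, an autophagy conjugation factor, at 324 against 87.3 TPM.

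**Figure D4:**
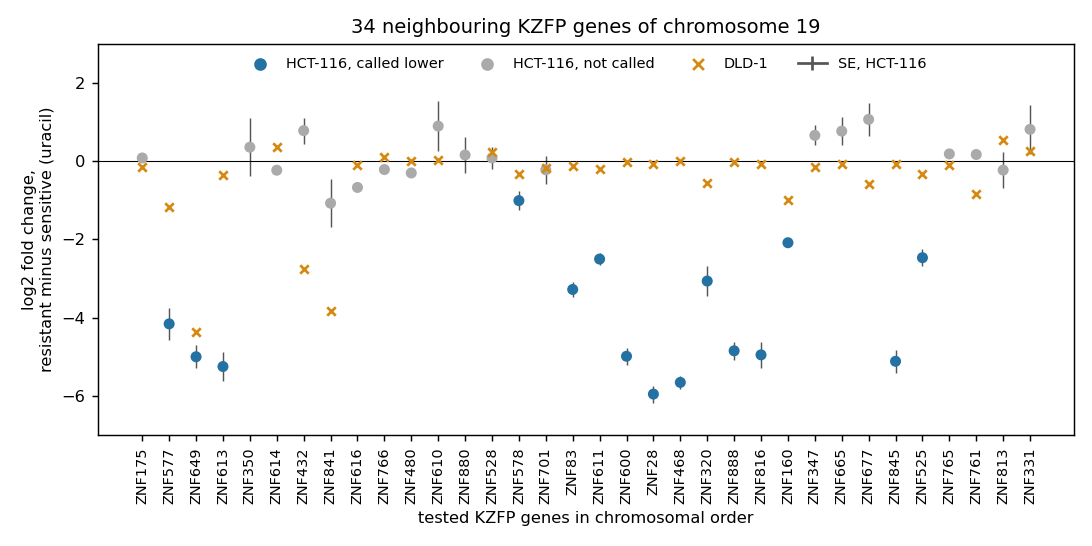
log2 fold change (resistant minus sensitive, uracil) of the 34 tested KZFP genes of 1 cluster on chromosome 19, in chromosomal order, with standard errors for HCT-116 as lines and crosses for DLD-1. Blue points mark the 15 genes called lower in HCT-116, 9 of them adjacent from ZNF83 to ZNF160, and the 19 grey points were not called. Some grey points have wide errors, such as ZNF350 (SE 0.74) and ZNF841 (SE 0.61), so not called does not mean unchanged.

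Promoter sequences (RefSeq, GRCh38.p14, gene strand, the 250 bases before the start) are shown for KZFP genes that went different ways, of which ZNF468, ZNF845 and ZNF765 lie in the same cluster, with each CG dinucleotide in capitals, since CG is where human DNA is methylated. ZNF468 (chr19:52857620-52857869, minus strand) and ZNF845 (chr19:53333499-53333748, plus strand) were lower, ZNF765 (chr19:53394899-53395148, plus strand) was not called, ZNF84 (chr12:133037259-133037508, plus strand) was lower and ZNF416 (chr19:57578912-57579161, minus strand) was higher.
ZNF468: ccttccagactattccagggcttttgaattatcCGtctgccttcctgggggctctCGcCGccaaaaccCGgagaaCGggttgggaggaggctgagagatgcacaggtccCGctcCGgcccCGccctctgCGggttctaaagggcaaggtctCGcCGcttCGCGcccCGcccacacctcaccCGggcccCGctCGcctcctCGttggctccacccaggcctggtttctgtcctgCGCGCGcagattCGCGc
ZNF845: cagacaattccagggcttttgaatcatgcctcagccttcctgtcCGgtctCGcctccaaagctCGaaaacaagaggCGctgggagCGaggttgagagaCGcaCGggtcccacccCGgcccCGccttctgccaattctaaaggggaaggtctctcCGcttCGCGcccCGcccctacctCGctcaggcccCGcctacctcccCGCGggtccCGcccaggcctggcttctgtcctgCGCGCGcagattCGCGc
ZNF765: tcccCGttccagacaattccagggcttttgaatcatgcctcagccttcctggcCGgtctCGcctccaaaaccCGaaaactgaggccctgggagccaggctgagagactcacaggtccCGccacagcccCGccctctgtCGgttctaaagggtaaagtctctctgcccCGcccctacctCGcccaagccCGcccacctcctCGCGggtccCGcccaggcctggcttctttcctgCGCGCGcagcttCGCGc
ZNF84: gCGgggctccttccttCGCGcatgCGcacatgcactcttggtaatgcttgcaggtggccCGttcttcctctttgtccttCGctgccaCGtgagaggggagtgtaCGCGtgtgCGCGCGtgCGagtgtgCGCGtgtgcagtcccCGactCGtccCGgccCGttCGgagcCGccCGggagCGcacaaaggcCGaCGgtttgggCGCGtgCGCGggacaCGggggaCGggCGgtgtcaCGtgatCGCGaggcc
ZNF416: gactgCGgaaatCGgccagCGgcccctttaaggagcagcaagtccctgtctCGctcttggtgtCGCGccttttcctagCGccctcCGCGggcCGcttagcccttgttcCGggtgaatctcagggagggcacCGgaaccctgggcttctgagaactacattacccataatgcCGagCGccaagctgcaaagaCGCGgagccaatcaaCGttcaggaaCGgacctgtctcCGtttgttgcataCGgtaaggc

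These sequences held 23, 23, 18, 35 and 20 CG dinucleotides in the order ZNF468, ZNF845, ZNF765, ZNF84 and ZNF416. Of 27305 promoters of the same length in the table, 93.6% held at least 1 CG and the median was 11. Over 300 bases the median was 25 for tested protein-coding genes, 20 for lower KZFP genes and 21 for KZFP genes not called. The ZNF845 and ZNF765 promoters were identical at 83.8% of aligned positions, yet ZNF845 had 0.00927, 0.0491 and 0.0950 TPM in resistant against 2.25, 2.10 and 2.43 TPM in sensitive libraries, while ZNF765 had 5.62, 5.20 and 5.15 TPM against 4.50, 4.44 and 4.42 TPM. Over the 300-base promoters, the observed to expected CG ratio had a median of 0.76 in the 50 lower KZFP genes and 0.79 in the 207 KZFP genes not called that had a promoter in the table. Over all called protein-coding genes the same ratio had a median of 0.75 in lower and 0.38 in higher genes, against 0.83 in genes not called. Only 75.0% of the lower and 70.5% of the higher genes had a promoter in the table, against 80.4% of all tested. These medians therefore leave out many called genes, and their difference was not tested. DNA methylation was not measured in these libraries.

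The same cells were also compared in 5-FU and in 5-FU with irradiation, with other libraries than the 6 of the uracil groups. All these comparisons came from the same fit over the 18 HCT-116 libraries and shared its estimate of spread, so they were not fully independent. In 5-FU, resistant cells had 1845 genes lower (8.03%) and 1212 higher (5.28%). Of the 1562 genes lower in uracil 1021 were lower again in 5-FU, which is 65.4% of the uracil list and 55.3% of the 5-FU list, and 1 was called higher. Of the 957 genes higher in uracil 332 were higher again, 34.7% of the uracil list and 27.4% of the 5-FU list, and 9 were called lower. With irradiation 1410 genes (6.14%) were lower and 1315 (5.72%) higher. The lower genes shared with uracil were 59.5% of the uracil list and 65.9% of the irradiation list, and the shared higher genes were 41.0% and 29.8%. Of the 59 lower KZFP genes 51 were lower in 5-FU, 52 with irradiation and 50 in both. Of the 14 lower hypoxia genes 9 were lower in 5-FU and 11 with irradiation, and of the 12 lower junction genes 8 and 7 were.

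Some values differed between conditions, and these differences were not tested. CPA4 had a log2 difference of 2.95 in uracil and -0.59 in 5-FU, and EGR1 had -3.03 in uracil and -0.23 in 5-FU. KRTAP2-3 had 1.58 in uracil and -1.585 in 5-FU, and KRT32 had 1.33 and 0.31. None of the G1/S genes was called by edgeR in uracil and 16 of 21 were higher in resistant cells in 5-FU. CDKN1A had -0.49 in uracil and -2.20 in 5-FU.

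DLD-1 cells made resistant in the same way gave 438 lower (2.01%) and 805 higher (3.69%) genes of 21814 tested in uracil. Of the 1562 genes lower in resistant HCT-116, 61 were lower in resistant DLD-1 (3.91% of the HCT-116 list and 13.9% of the DLD-1 list) and 167 were higher there, while 1213 of the 1562 could be tested in DLD-1. Of the 957 genes higher in HCT-116, 56 were higher in DLD-1 (5.85% and 6.96%). The difference between the lines was tested as an interaction over 36 libraries, and 2115 of 24807 genes (8.53%) were lower and 927 (3.74%) higher in the HCT-116 difference than in the DLD-1 difference. Among the 59 lower KZFP genes, 52 were called lower by the interaction test. Of all 2519 genes called in uracil, 1531 were also called by that test. The lower KZFP, hypoxia and junction genes were picked from HCT-116 libraries that the test uses, so their shares are not independent evidence. KZFP genes lower in both lines were ZNF559, ZNF573, ZNF577, ZNF599, ZNF607, ZNF649 and ZNF738, 11.9% of the HCT-116 list and 31.8% of the DLD-1 list. Of the tested KZFP genes, 59 of 304 (19.4%) were lower in HCT-116 and 22 of 315 in DLD-1. Whether the overlap exceeded what these shares give was not tested. Of the 14 lower hypoxia genes 13, and of the 12 lower junction genes 10, were lower by the interaction test, while in DLD-1 alone CDH1 stood at a log2 value of 0.18, NDRG1 at -0.06 and BNIP3 at 0.44, none of them called.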

How the data were processed

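Per the labels and the study's methods, the authors trimmed reads with Trimmomatic 0.36, checked them with FastQC 0.11.8 and quantified Ensembl transcripts of GRCh38.p13 with kallisto 0.44.0. The deposited tables give estimated counts and TPM per gene, summed over transcripts, and the gene totals equalled the transcript totals in all 6 libraries. Estimated counts were rounded to whole numbers and tested with edgeR 4.0.16 (quasi-likelihood F test, TMM scaling, filterByExpr) over the 18 HCT-116 libraries in 6 groups, with 36 libraries for the comparison of lines. Standard errors are the log2 fold change divided by the square root of F. A difference was called at an adjusted p of at most 0.01 and 2-fold. TPM follows transcript lengths, so ratios of TPM and the fold changes from counts differ slightly. The fit was checked on simulated counts. The labels call the replicates by number only, and the methods call them biological triplicates, so the spread is that of cultures of 1 population.

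Gene positions, types and KZFP genes were taken from GENCODE 44 (37791 of 59368 gene names matched), and KRAB domains were found with pyhmmer 0.12.3 in translated transcripts. Genes named are the 10 largest decreases and 10 largest increases among called, non-overlapping protein-coding genes at 5 TPM or more on average in either group, the 2 largest in each direction of each gene list at an average of 1 TPM or more, and a fixed set of genes of drug response and identity. Other genes named were list members or were chosen after their values were seen. The comparison and the lists were chosen with earlier results of these data known. Alternatives were another fold threshold, adjusted p alone, DESeq2 1.42.0, other scalings, no filter, the 6 libraries alone, a replicate block and leaving out each library. Some genes of the rule are not reported here.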

Additional observations from a re-analysis of the deposited data

Results flagged for a closer look

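For 17 of the 20 genes with the largest differences, the resistant minus sensitive difference in HCT-116 differed from that in DLD-1 by the interaction test in edgeR (adjusted p of at most 0.01 and at least 2-fold over all genes tested). The 20 were picked by their HCT-116 difference in the same libraries, so this outcome was partly fixed in advance. TNFRSF6B, HLA-DQB1 and SLC22A17 averaged 0 TPM in resistant and sensitive DLD-1 in uracil, so the test could not judge them. The HCT-116 difference minus the DLD-1 difference, on the log2 scale, was -6.2 for PXDN, -5.92 for ZNF28, -7.12 for GPAT2, -5.72 for ZNF468, -5.82 for CCN3, -5.26 for ZNF84 and -7.81 for SUSD3. SUSD3 was higher in resistant DLD-1 (log2 fold change 2.28). Among the increases it was 3.01 for ZBED2, 4.85 for KRT81, 5.55 for ALDH1L1, 3.02 for F3, 4.13 for COL17A1, 3.2 for KRT80, 2.49 for PDE4D, 2.87 for VSNL1, 7.32 for TLL1 and 3.61 for CPA4. ZBED2 rose in resistant DLD-1 as well (log2 fold change 2.50), but only to 0.456 TPM, and ALDH1L1 fell there (-1.24). TLL1 and GPAT2 were near 0 TPM in DLD-1, where little could be measured.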

How the results depend on the processing

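With a log2 threshold of 2, 610 genes were lower and 242 higher, 1 KZFP gene was higher, the interaction gave 974 lower and 353 higher, and 437 lower and 92 higher genes were called again in 5-FU. With adjusted p alone the counts were 5665 lower and 3768 higher, and 105 and 48 for KZFP genes. Under DESeq2, other scalings, no filter and the 6 libraries alone, all 4 counts of genes and of KZFP genes stayed within 1.5 times. Leaving out each library gave 1396 to 1628 lower and 786 to 1047 higher genes, 58 to 60 and 6 to 9 KZFP genes, 1902 to 2135 and 796 to 1075 genes by interaction, and 934 to 1011 and 308 to 347 called again. The mean distance between groups was 1.15 with a pseudocount of 0.1 and 0.378 with no filter. The DPYD log2 value ran from -0.068 to 0.163 as each library was left out, was negative only without sensitive replicate 2, and was never called. A replicate block gave 1556 lower and 953 higher genes and lost the PTGDS call. Same-numbered libraries deviated together with r of -0.03, 0.10 and 0.02, against -0.10 to 0.08 for libraries of unlike number. No pairing by number was seen, but the check cannot exclude that same-numbered cultures were handled together. With 3 libraries a group, genes under about 1 TPM have wide errors, and fold changes of genes near 0 counts depend on the prior count.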

Other observations

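Some genes were at 3 counts or fewer in every resistant library and at 1 TPM or more in sensitive cells. IL18R1, a receptor chain for the cytokine IL-18, had 2.57 ± 0.368 TPM in sensitive cells (SD, n = 3) and was at least 66.2-fold lower, against a floor of 3 counts per library. CXCR4, a chemokine receptor, had 1.68 ± 0.280 TPM and was at least 29.8-fold lower, and the KZFP gene ZNF221 had 1.22 ± 0.330 TPM and was at least 18.6-fold lower. CGB2 and STEAP1B were each at least 11-fold lower.

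Of 36 mitochondrial genes tested, 15 were higher and 0 lower in resistant cells, against 4.17% and 6.80% of all genes, with a median log2 fold change of 0.83, beside the larger mitochondrial share of counts in those libraries. The higher ones were 13 of 21 tested tRNA genes and the 2 rRNA genes, in libraries of poly(A) RNA. No protein-coding gene of the mitochondria was called. Among 1812 long non-coding RNA genes 84 were lower and 95 higher, against 1273 lower and 458 higher among 14914 protein-coding genes.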
